A study of Homo sapiens with 6 samples.

Results

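Small RNA libraries of A549 cells, an established line from a human lung adenocarcinoma, fell into 2 sets that cut across the conditions of the study. Set A held Ctrl replicates 1 and 2 and MIR21-KO replicate 3, and set B held Ctrl replicate 3 and MIR21-KO replicates 1 and 2, so that all 6 libraries belonged to either set, with 3 in each. No sample label names these sets. They were selected on the measured values themselves, from the first principal component of the libraries, and differences of miRNA values between them are therefore a description without a test. Ctrl libraries came from the parental cells, and MIR21-KO libraries from cells in which part of the MIR21 locus was deleted with CRISPR/Cas9 and which were grown as clones from sorted single cells. How many clones stand behind the 3 MIR21-KO libraries is not given in the sources used here. Both kinds of cells were cultured in the same medium without further treatment and were harvested 48 h after seeding. The labels name the same provider, Novogene, for all 6 libraries. The methods of the paper give preparation with a NEXTflex kit or by Novogene, and sequencing in Dresden or at Novogene. They do not say which small RNA libraries took which route. Of 2588 mature miRNAs in the deposited table, 605 reached a value of 1 in 3 or more libraries and were compared, with both strands of miR-21 left out. The last miRNA kept by this rule was miR-1275, whose value in the library that decided it was 1.01, and the first left out was miR-3192-5p with 0.988.

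A miRNA is cut from a hairpin precursor as a short duplex of a 5p and a 3p strand. As a rule, 1 strand is loaded into an Argonaute protein and the other is degraded, so that the strands of a hairpin usually have very different levels. Bases 2 to 8 of the loaded strand, the seed, pair with target mRNAs, and miRNAs with the same seed form a family. Hairpins that lie close together are often cut from a common primary transcript.

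The mature sequences of the miRNAs with the largest differences between the sets are shown first, since strand, seed and end bases are compared between the sets below. They were taken from RefSeq on GRCh38.p14, where 542 of the 605 miRNAs matched by name. The seed is in capitals. These miRNAs had higher values in set A:
miR-7706: uGAAGCGCcugugcucugccgaga
miR-200a-5p: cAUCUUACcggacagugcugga
miR-2682-5p: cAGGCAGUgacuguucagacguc
miR-148a-3p: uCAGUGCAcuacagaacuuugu
miR-3158-3p: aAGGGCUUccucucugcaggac
miR-548o-3p: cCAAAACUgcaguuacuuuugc
miR-30e-3p: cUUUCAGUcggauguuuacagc
miR-409-3p: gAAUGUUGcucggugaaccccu
miR-493-3p: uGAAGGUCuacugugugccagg
miR-582-3p: uAACUGGUugaacaacugaacc

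These miRNAs had higher values in set B:
miR-181a-5p: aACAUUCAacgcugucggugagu
miR-4521: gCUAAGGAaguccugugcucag
miR-107: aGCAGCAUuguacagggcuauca
miR-138-5p: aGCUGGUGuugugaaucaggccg
miR-494-3p: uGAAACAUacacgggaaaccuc
miR-17-5p: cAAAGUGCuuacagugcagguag
miR-194-5p: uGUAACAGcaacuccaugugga
miR-20a-5p: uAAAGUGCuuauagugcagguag
miR-29b-3p: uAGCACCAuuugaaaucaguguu
miR-34a-5p: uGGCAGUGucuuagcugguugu
miR-31-5p: aGGCAAGAugcuggcauagcu

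The loci of these miRNAs were spread over the genome. On the GENCODE 29 annotation of GRCh38, miR-200a-5p lies at chr1:1167878-1167899 on the plus strand, outside any gene other than its own hairpin. miR-30e-3p lies at chr1:40754413-40754434 in an intron of NFYC, and miR-582-3p at chr5:59703630-59703651 in an intron of PDE4D. miR-7706 lies at chr15:85380639-85380662, within an annotated exon of AKAP13. Among those higher in set B, miR-17-5p and miR-20a-5p lie at chr13:91350618-91350640 and chr13:91351072-91351094 in an exon of MIR17HG, the transcript of the miR-17-92 cluster. miR-107 lies at chr10:89592756-89592778 in an intron of PANK1. miR-34a-5p lies at chr1:9151735-9151756 in an exon of MIR34AHG, a host transcript known as a target of p53.

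The libraries held 5577287 to 9768152 miRNA reads, which could be recovered from the scaled values. In units of 1000000 reads, set A held 6.21 ± 0.648 and set B 8.56 ± 1.27 (SD, n = 3), and every library of set B held more reads than every library of set A (exact permutation test of the means, two-sided, p = 0.1, the lowest that 3 against 3 allow, so that no threshold of 0.05 can be passed). Without miR-21 the reads were 3.30 ± 1.99 in set A and 6.29 ± 2.97 in set B (SD, n = 3, p = 0.2 by the same exact test), and the sets overlapped, with 5.58 in MIR21-KO replicate 3 of set A and 2.97 in Ctrl replicate 3 of set B. At an equal depth of 1945114 reads other than miR-21, 866 ± 11.1 miRNAs were expected with a read in set A and 967 ± 14.5 in set B (SD, n = 3), without overlap. The part of depth and of the number of miRNAs found in the differences below was not tested. miR-21-5p, the product of the deleted locus, made up 65.5% to 69.4% of the reads of the Ctrl libraries and 0.0156% to 0.0254% of the MIR21-KO libraries, so each library matched the condition in its label. Reads of cells in bulk do not tell fewer cells with a miRNA from less of it per cell. The paper states biological triplicates or more for its experiments in general. Nothing in the labels says that the libraries of a condition came from separate cultures. Errors and p-values therefore measure only the spread between these libraries, which may be technical.

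The first principal component of the 605 miRNAs held 72.0% of the variance and the second 17.2%. On the first, the libraries of set A scored -19.4, -16.4 and -13.3 and those of set B 16.0, 16.1 and 17.0. The nearest libraries of different sets, MIR21-KO replicates 3 and 1, were 29.3 apart, while the libraries within a set lay close together. On the second component all Ctrl libraries were below 0 and all MIR21-KO libraries above it. In a least-squares model of log2(value + 1) with set and condition as terms, the set took 63.4% of the sum of squares and the condition 17.4%, with 11.4% left over. The set was the larger of the terms, as it had to be after its choice on the first component.

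A miRNA was counted as different between the sets if the log2 difference from this model was at least 1 in size and if, within Ctrl and within MIR21-KO, all libraries of a set lay above those of the other. By this rule 103 miRNAs were higher in set A (17.0% of 605) and 174 were higher in set B (28.8%), while 328 were not counted. The rule used the values that chose the sets, so nothing is read from these percentages. Differences are given as set B minus set A on the log2(value + 1) scale, which understates those of scarce miRNAs, with the standard error of the model over 6 libraries. They ran from -4.01 to 3.38 with a median of 0.20 and a median standard error of 0.27. The balance rested on the scaling of the libraries. With each library centred on its median miRNA, the median difference was -0.17 and 148 miRNAs were higher in set A and 124 in set B, whereas scaling to the total without miR-21 gave a median of 0.49, with 72 and 229. Each miRNA is therefore best read against the median of 0.20. Next to the limit of 1, miR-151a-5p was the last counted with 1.01, and miR-5699-5p was the first not counted with 0.99.

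The largest difference of all was that of miR-151a-3p, a strand of a hairpin within the gene of the focal adhesion kinase PTK2. Its values, in TMM-scaled counts per 1000000, were 70696 and 64729 in the Ctrl libraries of set A and 55952 in the MIR21-KO library, against 2919 in the Ctrl library of set B and 5261 and 4739 in the MIR21-KO libraries. The sets did not overlap, with a difference of -4.01 (SE 0.31), 16.1-fold. Replicates of a condition thus differed far more in this miRNA than the conditions did within a set.

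The other miRNAs with large differences toward set A came from several families and loci. miR-200a-5p, from a hairpin of the epithelial miR-200 family, had values of 1097, 1070 and 497 in set A and of 82.3, 60.2 and 51.2 in set B (log2 difference -3.42, SE 0.18). miR-148a-3p, known as a repressor of the DNA methyltransferase DNMT1, had 4830, 4562 and 7051 in set A and 719, 1021 and 715 in set B (log2 difference -2.87, SE 0.21). In both cases the lowest library of set A was above the highest of set B, whatever the condition. miR-2682-5p, from the host transcript of miR-137, had 731, 689 and 666 in set A and 82.3, 86.9 and 70.0 in set B (log2 difference -3.09, SE 0.11). miR-30e-3p had 1506, 1146 and 1544 in set A and 253, 254 and 264 in set B (log2 difference -2.47, SE 0.15). The values of the last 2 within a set were near each other across the conditions, so that in them Ctrl replicate 3 resembled the knockout libraries of its set rather than the other Ctrl libraries. miR-10b-5p, from the HOXD cluster, was higher in set A within both conditions, with 5905, 5213 and 13478 in set A and 1086, 3250 and 2733 in set B (log2 difference -2.26, SE 0.12). The remaining miRNAs of the 12 with the largest differences at a mean value of at least 100 were miR-7706 (-3.64), miR-3158-3p (-2.66), miR-548o-3p (-2.63), miR-409-3p (-2.25), miR-493-3p (-2.22) and miR-582-3p (-2.18).

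Among the miRNAs higher in set B, many belong to large, well-studied families. miR-181a-5p, a modulator of lymphocyte signalling, had values of 217, 201 and 265 in set A and of 1970, 2513 and 1825 in set B (log2 difference 3.12, SE 0.18). miR-17-5p, a growth-promoting member of the miR-17-92 cluster, had 155, 148 and 102 in set A and 1146, 617 and 716 in set B (log2 difference 2.80, SE 0.10). Every library of set B was above every library of set A for both. miR-34a-5p, which p53 induces, had 125, 188 and 156 in set A and 954, 867 and 696 in set B (log2 difference 2.47, SE 0.25). miR-31-5p had 502, 652 and 911 in set A and 3197, 4934 and 4951 in set B (log2 difference 2.46, SE 0.13). These also did not overlap. For miR-29b-3p, a repressor of collagen mRNAs, the standard error of 0.75 was the largest of these, with values of 62.0, 247 and 77.8 in set A and 573, 664 and 443 in set B (log2 difference 2.49).

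miR-194-5p shows why order was judged within each condition. In set A its Ctrl values were 524 and 464 and its MIR21-KO value 63.6, and in set B the Ctrl value was 3644 and the MIR21-KO values were 335 and 413. The sets overlapped when the conditions were pooled, and parted within each of them (log2 difference 2.71, SE 0.16). The other miRNAs with the largest differences were miR-4521 (3.10), miR-107 (3.05), miR-138-5p (2.95), miR-494-3p (2.84), miR-20a-5p (2.60) and miR-30b-5p (2.47). None of the 24 miRNAs changed its direction under any of the other scalings, filters and pseudocounts tried, or with any library left out.

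Of the 10 miRNAs with the highest mean level, 3 were counted, all as higher in set A. Beside miR-151a-3p these were miR-100-5p, with 79150, 45251 and 65318 in set A and 16728, 18564 and 19845 in set B (log2 difference -1.80, SE 0.29), and miR-10a-5p, a HOXB cluster miRNA, with a difference of -2.14 (SE 0.13). The others lay nearer to 0. let-7i-5p, the most abundant after miR-21-5p, had a difference of -0.17 (SE 0.25) and miR-27b-3p one of 0.22 (SE 0.26), both smaller than their errors. The remainder were miR-30a-5p (0.79), miR-192-5p (-0.73), miR-7-5p (-0.70), let-7f-5p (-0.43) and miR-30d-5p (-0.29). A high level alone thus did not come with a given difference, and across the 605 miRNAs the rank correlation of mean value and difference was -0.01, the points sharing the same 6 libraries.

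By abundance class, the share counted as higher in set B was largest at mean values from 10 to 100, with 64 of 167 miRNAs, against 30 higher in set A (median difference 0.55). Below a mean of 10 the counts were 65 and 30 of 275 (median 0.19), and from 100 to 1000 they were 34 and 26 of 102 (median -0.09). At 1000 and above, 11 were higher in set B and 17 in set A of 61 (median -0.29). Over all 605 miRNAs the median was 0.20, with 17.0% higher in set A and 28.8% higher in set B. The sets were chosen on these values and the balance rested on the scaling, so nothing is read from these counts about a class. The filter asked for 3 libraries, the number in each set, so a scarce miRNA could be kept through 1 set alone. Reads of miR-589-3p were 0 in all of set A and 13, 17 and 18 in set B. miR-578 had 9, 5 and 11 reads in set A and 0 in all of set B.

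The strands of the hairpins were compared in the same way. Over all levels, 5p strands had a median difference of 0.41, with 35 of 241 higher in set A and 82 in set B, and 3p strands of 0.21, with 47 and 79 of 270. At a mean value of at least 100 the medians were 0.32 for 83 5p strands, with 14 higher in set A and 30 in set B, and -0.53 for 66 3p strands, with 21 and 12. Of the abundant 3p strands 31.8% were thus higher in set A and 18.2% in set B, and of the abundant 5p strands 16.9% and 36.1%. Over all 605 miRNAs these shares were 17.0% and 28.8%. The sets were chosen on these values, so nothing is read from the counts about a strand. The strands at this level were not compared under other scalings. The median of the 3p strands over all levels changed its sign between scalings, from -0.17 to 0.48, while that of the 5p strands stayed between 0.11 and 0.79. miRNAs with no strand in their name had a median of -0.19, with 21 of 94 higher in set A and 13 in set B.

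The ratio of both strands of a hairpin is taken within a library, so the scaling factor cancels apart from the 1 added to each value. For hairpins with a scarce strand the ratio therefore still depends on the scaling. Both strands were kept for 155 hairpins. By the same rule of size and order, the log2 ratio of 3p to 5p was higher in set A for 48 hairpins (31.0%) and higher in set B for 45 (29.0%), with a median absolute difference of 1.31. In 42 hairpins both strands were counted on their own. Of these, 20 had strands that differed in opposite directions, 11 with the 5p strand higher in set B and 9 with it higher in set A, while 21 had both strands higher in set B and 1 had both higher in set A. Across the hairpins, the differences of the 5p and the 3p strand had a Pearson r of -0.10 and a Spearman rho of -0.07.

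Strands whose order was exchanged between the sets are shown for 3 of the 4 hairpins with such an exchange among the 12 named ones, since here the sets would name a different dominant strand. The sequences, with the seed in capitals, were:
miR-200a-3p: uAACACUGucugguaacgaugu
miR-30e-5p: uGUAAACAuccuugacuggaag
miR-195-5p: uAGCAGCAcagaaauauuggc
miR-195-3p: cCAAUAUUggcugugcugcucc

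For miR-200a, the 3p strand, which represses ZEB1 and ZEB2, had values of 108, 78.7 and 60.6 in set A and 537, 235 and 226 in set B, opposite to the 5p strand given above. The log2 ratio of 3p to 5p was -3.34, -3.75 and -3.02 in set A and 2.69, 1.95 and 2.12 in set B, a difference of 5.64 or 49.9-fold. The 5p strand was thus the more abundant in all libraries of set A and the 3p strand in all libraries of set B. miR-30e-5p had 583, 564 and 552 in set A and 3164, 1737 and 1495 in set B, and the ratio of its hairpin was 1.37, 1.02 and 1.48 in set A and -3.64, -2.77 and -2.50 in set B. In miR-195 the ratio was 3.66, 3.75 and 3.82 in set A and -0.87, -1.54 and -1.68 in set B. Both hairpins had more 3p than 5p strand in set A and the reverse in set B.

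The fourth was miR-369, with ratios of -1.62, -1.32 and -0.76 in set A and 2.99, 3.50 and 3.12 in set B. In the other 8 the same strand dominated in all 6 libraries. The ratio of miR-582 was 8.52, 8.85 and 8.76 in set A and 3.36, 4.16 and 3.54 in set B, so the 3p strand dominated in all libraries. That of miR-10a was -10.28, -10.02 and -10.41 in set A and -6.48, -7.25 and -7.24 in set B, where the 5p strand dominated throughout. The libraries of a set differed in these ratios by much less than the sets did. The differences of the remaining named hairpins were -5.02 for miR-151a, -3.85 for miR-340 and -3.69 for miR-409, and 3.39 for miR-550a, 3.63 for miR-23a and 4.73 for miR-2682, against 4.27 for miR-369.

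miRNAs with the same seed were more alike in their set difference. In 166 pairs with a common seed the median absolute gap between their differences was 0.642, and 74.7% had differences of the same sign. The gap was 1.31 in 137 pairs of strands of the same hairpin with a sequence, 1.29 in 739 pairs of other neighbours within 10000 bases on the same strand of a chromosome, and 1.25 in all 146611 pairs, with 49.6%, 52.1% and 50.7% of the same sign. Strands of the same hairpin and neighbours were thus no more alike than any pair. At a mean value of at least 10 the gaps were 0.683 for a common seed, 1.73 for strands of a hairpin, 1.38 for neighbours and 1.46 for all pairs. Members of a seed family also resemble each other outside the seed, and the authors' counting may have shared reads between near-identical ones, so these pairs are not independent.

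Of 16 seeds with at least 3 members, 10 had all members on the same side of 0, with 8 above it and 2 below. Over all 605 miRNAs, 17.0% were higher in set A and 28.8% in set B. Since the sets were chosen on these values, nothing is read from the counts by seed about a family. All 6 members with the seed AAAGUGC of miR-17 were higher in set B (median 2.17), as were all 6 with AGCAGCA of miR-15 and miR-16 (median 2.26), all 4 with ACAUUCA of miR-181 (median 2.35), all 4 with AGUGCAA of miR-130 and miR-301 (median 1.55), all 3 with AGCACCA of miR-29 (median 2.44) and all 3 with UCACAUU of miR-23 (median 1.74). All 3 with ACCCGUA, the miR-99 and miR-100 family that represses MTOR, were higher in set A (median -1.33). A common seed did not fix the direction. Of the CAGUGCA family, miR-148a-3p differed by -2.87 and miR-148b-3p and miR-152-3p by 0.80 and 0.27. With AGGCAGU, miR-2682-5p differed by -3.09, while miR-34b-5p and miR-449c-5p were both higher in set B.

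The counts by family that follow stand beside 17.0% higher in set A and 28.8% higher in set B over all 605 miRNAs and a median of 0.20, and since the sets were chosen on these values nothing is read from them about a family. The miR-17-92 cluster and its paralogs had 11 of 16 strands higher in set B and 0 in set A (median 1.96). The difference was 2.80 for miR-17-5p, 1.97 for miR-18a-5p, 2.64 for miR-19a-3p, 2.60 for miR-20a-5p and 1.90 for miR-19b-3p, but -0.08 for miR-92a-3p, which is cut from the same transcript. The paralogous cluster in MCM7 had the same split, with 2.28 for miR-93-5p and 1.96 for miR-106b-5p, and -0.61 for miR-25-3p, which shares its seed with miR-92a-3p, and -0.70 for miR-106b-3p. Values of miR-93-5p were 394, 367 and 309 in set A and 1898, 1422 and 1495 in set B, without overlap, whereas those of miR-92a-3p, at 4165, 2618 and 2707 in set A and 3924, 2251 and 1854 in set B, overlapped.

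A like division ran through the clusters of miR-23, miR-27 and miR-24. miR-23a-3p had 271, 247 and 386 in set A and 1503, 1382 and 1572 in set B (log2 difference 2.23, SE 0.19), and miR-23b-3p differed by 1.74. The miR-27a-3p and miR-24-3p of these clusters differed by -0.42 and -0.56 and were not counted, and the minor strands miR-27a-5p and miR-27b-5p were higher in set A (-1.86 and -1.40). Of the miR-99, miR-100 and miR-125 strands, 4 of 9 were higher in set A and 2 in set B. Here the miR-125 members, relatives of lin-4, went against their cluster neighbours: miR-125a-5p had 378, 293 and 479 in set A and 1328, 1720 and 1711 in set B (log2 difference 1.92), while miR-99b-5p from the same cluster had 12025, 9000 and 14494 in set A and 4285, 6660 and 6308 in set B (log2 difference -1.22). miRNAs of the same cluster were thus counted in opposite sets for miR-125a-5p and miR-99b-5p, and for miR-23a-3p and miR-27a-5p. By contrast, miR-92a-3p, miR-25-3p, miR-27a-3p and miR-24-3p were not counted in either set.

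In the miR-30 family, which represses regulators of the mesenchymal state, 4 of 11 strands were higher in set B and 2 in set A. The 5p strands of miR-30b, miR-30c and miR-30e were higher in set B (2.47, 1.36 and 2.0) and the 3p strands of miR-30a and miR-30e higher in set A (-1.50 and -2.47). Of 9 strands of the miR-15, miR-16 and miR-424 list, 6 were higher in set B, with miR-424-5p at 3.01 and miR-16-5p at 2.32. Of 8 miR-181 strands, 6 were higher in set B and miR-181a-2-3p was higher in set A (-1.29). The miR-29 family had 5 of 7 higher in set B, with 2.44 for miR-29a-3p, and the miR-34 and miR-449 list had 5 of 6, with 2.47 for miR-34a-5p. The miR-130, miR-301 and miR-454 list had 5 of 7 higher in set B. In the lists of miR-15, miR-29, miR-34 and miR-130, 0 miRNAs were counted as higher in set A.

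The let-7-5p and miR-98-5p members, repressors of RAS and HMGA2 mRNAs, had 0 of 9 higher in set A and 2 in set B, let-7b-5p at 1.52 and let-7d-5p at 1.31, with a median of 0.82 over the list. Of the 10 let-7-3p and miR-98-3p strands 2 were higher in set B (median 0.14). These shares of 22.2% and 20% stand beside 28.8% of all miRNAs. The miR-221 and miR-222 list had none of 4 counted. In all, 13 of 23 lists had a median of the same sign under all scalings and other settings. These included the lists of miR-17-92, miR-181, miR-15, miR-29, miR-103, miR-130, miR-34, miR-320 and let-7-5p, all above 0, and that of miR-99, miR-100 and miR-125, below 0.

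The near-identical miR-103a-3p and miR-107 show that miRNAs of nearly the same sequence differed unequally between the sets. Both are 23 bases long and lie in introns of genes of pantothenate kinases:
miR-103a-3p: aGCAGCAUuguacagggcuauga
miR-107: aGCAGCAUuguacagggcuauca

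Counted from the 5′ end of miR-103a-3p, they differ only by G22C. miR-103a-3p had values of 2209, 2029 and 3420 in set A and 4663, 6030 and 6988 in set B (log2 difference 1.03, SE 0.11). miR-107 had 19.5, 21.9 and 36.5 in set A and 251, 221 and 217 in set B (log2 difference 3.05, SE 0.29). Both were higher in set B, miR-107 by the larger factor. How the authors' counting assigned reads that fit both is not given in the sources used here, so a share of either value may belong to the other.

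Counts by the base at the ends of the mature sequence stand beside 17.0% higher in set A and 28.8% higher in set B over all 605 miRNAs. Several lay near these shares, and since the sets were chosen on these values nothing is read from them about an end base. Of 155 miRNAs that begin with A, 20 were higher in set A and 60 in set B (median difference 0.72), and of 230 that begin with U these numbers were 43 and 52 (median 0.06). For those that begin with C they were 19 and 37 of 112 (median 0.11), and for G 6 and 8 of 45 (median 0.16). At the 3′ end, 29 of 118 miRNAs that end with C were higher in set A and 25 in set B (median -0.14), against 23 and 64 of 198 that end with U (median 0.39). miRNAs ending with A or G lay between, with medians of 0.30 and 0.25. At a mean value of at least 100, 11 of 23 miRNAs that begin with C were higher in set A and 3 in set B (median -1.07), and 13 of 31 that end with C were higher in set A and 4 in set B (median -0.70).

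The content of G and C was also unequal, with a median of 53.4% over 88 miRNAs higher in set A, 45.5% over 157 higher in set B and 47.8% over all. Across the 542 miRNAs with a sequence, GC content and difference had a Spearman rho of -0.18, and length one of 0.06, with a median length of 22 bases in both. The correlation with GC content was weak, and the miRNAs share seeds, families and the same 6 libraries. The sequence is the annotated one, as the values hold no reads whose ends could be compared.

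miRNAs known from other cell types were compared as a measure of what the libraries held beside lung epithelium. Of 24 such miRNAs all had a read in some library and 13 were kept (median -0.84, against 0.20 over all miRNAs). Of these 13, 6 (46.2%) were higher in set A and 2 (15.4%) in set B, beside 17.0% and 28.8% of all 605 miRNAs. Since the sets were chosen on these values, nothing is read from the counts about cell types. Their summed value was 6158 to 8291 in set A and 1877 to 2613 in set B, without overlap. Most of it came from miR-126-3p, known from endothelium, with 3648, 3354 and 2442 in set A and 964, 829 and 664 in set B, and from miR-128-3p, known from neurons, with 2963, 1816 and 2083 in set A and 794, 630 and 515 in set B. Not all members went this way. The opposite strand miR-126-5p was higher in set B (log2 difference 1.20), as was miR-145-5p (1.36), whose cluster partner miR-143-3p was higher in set A (-1.43). The neuronal miR-9-5p and miR-9-3p differed by -0.47 and 0.85 and were not counted. The liver miRNA miR-122-5p had 96.7, 141 and 51.9 in set A and 7.90, 16.2 and 8.58 in set B, and the erythroid miR-451a had 16.3, 41.6 and 8.97 in set A and 1.69, 4.61 and 2.45 in set B. The more abundant miR-486-5p, also of erythroid cells, had 164, 175 and 83.6 in set A and 135, 80.1 and 75.7 in set B (log2 difference -0.22) and was not counted. The part of other cells or of RNA from outside the cells was not tested. Of 7 epithelial miRNAs 6 were kept, and the sums of 1276 to 2176 in set A and 887 to 2072 in set B overlapped. Of these 6, 0 were higher in set A and 2 (33.3%) in set B, beside 17.0% and 28.8% of all miRNAs. The 2 were miR-200a-3p at 2.22 (mean value 208) and miR-141-3p at 1.02, which was scarce (mean value 1.13). miR-200b-3p and miR-200c-3p, of the same family, differed by -0.55 and -0.93 and were not counted.

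The difference between the sets was much the same in both conditions. Measured among the Ctrl libraries alone and among the MIR21-KO libraries alone, it had the same sign in 506 of 605 miRNAs (83.6%), with a Pearson r of 0.88 and a Spearman rho of 0.87 over miRNAs. These libraries are not shared between the conditions, but the sets were chosen on all of them together, so the likeness is a description. The median absolute difference between the sets was 1.02 in Ctrl and 0.88 in MIR21-KO. The median absolute difference between the conditions was 0.48 in set A and 0.44 in set B, so replicates of a condition from different sets were farther apart than the conditions within a set.

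**Figure D1:**
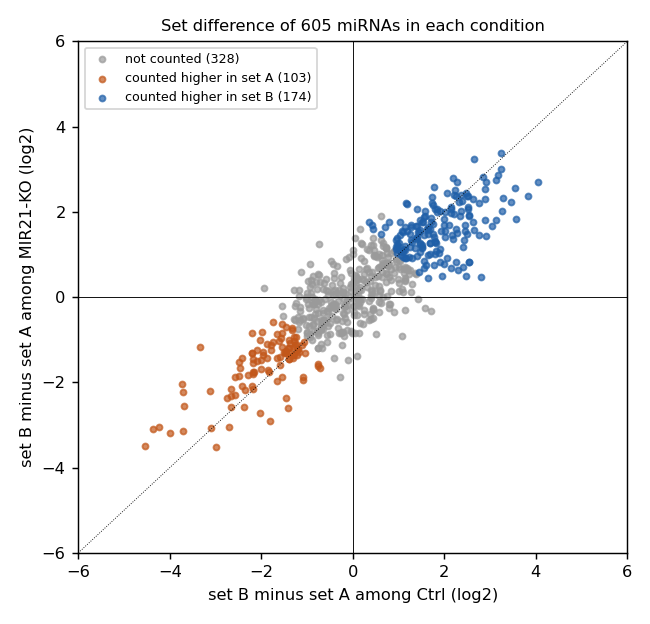
Set difference (set B minus set A, log2) of 605 miRNAs among Ctrl libraries (x axis) and among MIR21-KO libraries (y axis), 1 point per miRNA; orange and blue mark the 103 and 174 miRNAs counted as higher in set A and set B, and the dotted line marks equal differences. Most points lie along the dotted line, and 506 have the same sign on both axes.

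Since each set held libraries of both conditions, the sets entered the comparison of MIR21-KO with Ctrl as spread within the groups. With condition as the only term, limma called 3 of 605 miRNAs lower in MIR21-KO (0.496%) and 0 higher (0.00%) at an adjusted p under 0.05 after Benjamini-Hochberg adjustment, while 42 higher and 25 lower had an unadjusted p under 0.05. edgeR on the recovered reads also gave 0 higher and 3 lower, and DESeq2 gave 4 higher and 16 lower. The first of the 3 from limma, the p53-responsive miR-192-5p, had Ctrl values of 45591, 41633 and 26977, against 3907, 3320 and 6154 with the deletion (log2 fold change -3.11, SE 0.39, adjusted p = 0.0277 from limma). miR-194-3p, cut from a transcript shared with miR-192, had 70.5, 58.1 and 27.8 against 4.39, 3.10 and 3.64 (log2 fold change -3.40, SE 0.48, adjusted p = 0.0277 from limma). The conditions did not overlap for either miRNA, and the lowest of their Ctrl values was that of the library of set B. The last, miR-4485-3p, was of low level, with 13.4, 6.76 and 18.6 against 0.432, 0.361 and 0.780 (log2 fold change -3.10, SE 0.44, adjusted p = 0.0277 from limma). These calls rested on few libraries. Leaving out any of Ctrl replicates 1 and 2 and MIR21-KO replicates 1 and 2, limma called 0 miRNAs, and it called 1 without MIR21-KO replicate 3.

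With the set as a second term, 71 miRNAs were called higher and 37 lower by limma at an adjusted p under 0.05. Because these same values had defined the sets, the p-values are not independent of that choice and the counts are given only beside those above. Within the sets, miR-192-5p differed between the conditions by -2.82 in set A and -2.90 in set B, nearly the same, and between the sets by -0.73. For 96 of the 605 miRNAs, the MIR21-KO libraries lay above Ctrl in a set and below it in the other. miR-30b-5p was 0.63 higher in MIR21-KO within set A and 0.71 lower within set B on the log2 scale, beside a difference of 2.47 between the sets. For such miRNAs the direction of a comparison between the conditions depended on which libraries were used.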

How the data were processed

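Small RNA of 3 Ctrl and 3 MIR21-KO libraries of A549 cells was analysed from a table of the whole series. The authors deposited a signal per miRNA row, which held TMM-scaled counts per 1000000. The submitters' processing notes name cutadapt 1.14, Bowtie2 2.3.2, SAMtools 1.5, featureCounts 1.5.3, edgeR 3.18.1 and the build hg38. The annotation and the treatment of reads with several matches are not given in the sources used here. Columns with the authors' fold changes (log2), p-values and FDRs between the conditions were not used. Each value was a whole multiple of the value of a read in 100% of cases (tolerance 0.01), which gave back the reads. One factor scaled all values of a library, so a shift common to most miRNAs would not be seen.

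The 392 rows of 167 names with several rows were summed, which gave 2588 miRNAs. With both strands of miR-21 left out, 605 reached a value of 1 in 3 or more libraries and were analysed on log2(value + 1). Set differences came from least squares with set and condition as terms, without a test. Conditions were compared with limma 3.58.1 (R 4.3.3, lmFit and eBayes with trend, two-sided, Benjamini-Hochberg over 605 miRNAs), with edgeR 4.0.16 (quasi-likelihood) and DESeq2 1.42.0 on recovered reads as alternatives. Depth was compared by exact permutation tests with scipy 1.17.1 (Python 3.11.15). Other alternatives were pseudocounts of 0.1 and 10, filters, 4 other scalings, unsummed rows, a replicate block and each library left out in turn. The fits were tested on simulated counts. The members and lists were chosen with earlier results of these data known.

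The miRNAs named are the 12 with the largest counted difference in each direction at a mean value of at least 100, the 10 most abundant, the 2 most abundant of each list, the 6 hairpins with the largest counted difference in each direction at a mean of at least 10, and those called between the conditions. Other members of lists and seeds were named after their values were seen. Sequences are from RefSeq (GRCh38.p14) and gene positions from GENCODE 29 (GRCh38). The deviations of libraries with the same replicate number had correlations of -0.787, -0.606 and -0.880. Each number holds a library of set A and a library of set B, so these correlations cannot tell whether the numbers pair the libraries.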

Additional observations from a re-analysis of the deposited data

Results flagged for a closer look

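In 10 of the miRNAs named by rule, the libraries of MIR21-KO lay above Ctrl in a set and below it in the other, so that the effect of the knockout was ordered in opposite ways. Each set holds 1 library of a condition, so the difference between the effects, given here as set A minus set B on the log2 scale, was not tested. It was -1.05 for miR-151a-3p (-0.27 in set A and 0.77 in set B), -0.93 for miR-3158-3p (-0.32 and 0.61), -0.40 for miR-24-3p (-0.15 and 0.24), -0.54 for miR-101-3p (-0.30 and 0.24) and -0.92 for miR-378a-3p (-0.70 and 0.22). It was 0.99 for miR-107 (0.79 in set A and -0.20 in set B), 1.23 for miR-494-3p (1.08 and -0.15), 1.34 for miR-30b-5p (0.63 and -0.71), 0.97 for miR-148b-3p (0.62 and -0.35) and 0.83 for miR-454-3p (0.56 and -0.28). Over all 605 miRNAs 96 had such an order.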

How the results depend on the processing

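Of 63 named miRNAs, 55 kept the sign of their set difference under all alternatives, and 8 that were not counted as different crossed 0 (let-7d-3p, let-7i-5p, miR-101-3p, miR-26a-5p, miR-27b-3p, miR-30d-5p, miR-503-5p and miR-92a-3p). Of 1008 alternative values 223 moved by over 1 SD. The counts of miRNAs higher in set A and set B were 63 and 92 with a pseudocount of 10, 31 and 52 with a size of at least 2, and 73 and 109 at a mean value of at least 10. The split of 37.2% and 62.8% became 54.4% and 45.6% with median centring (148 and 124), 24.9% and 75.1% with libraries scaled to all miRNA reads (75 and 226), and 23.9% and 76.1% with libraries scaled to all but miR-21 (72 and 229). The median of all miRNAs was -0.17, 0.44 and 0.49 under these scalings and 0.05 with median-of-ratios factors (120 and 149). Leaving out each library gave 99 to 125 in set A and 167 to 189 in set B. Hairpins with a 3p to 5p ratio higher in set A and set B numbered 30 and 20 at a mean value of at least 10, 76 and 70 with no filter and 25 and 22 with a size of at least 2. Of 425 median differences of lists and strands, each under an alternative setting, 93 moved by over the spread of replicates.

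Between the conditions, the count of miRNAs lower in MIR21-KO was 5 with median centring, 5 when scaled to all miRNA reads (196 higher), 0 with no filter, 1 with a pseudocount of 10, 16 with DESeq2 (4 higher) and 37 with the set as a second term (71 higher). Leaving out each library gave 0 to 3 lower. With a replicate block it was 0 lower and 0 higher, and the set counts stayed at 103 and 174, since each replicate number holds a library of either set. Whether the numbers pair the libraries cannot be told from the values. The total of all miRNA reads includes miR-21-5p, which made up 65.5% to 69.4% of it in Ctrl and at most 0.0254% in MIR21-KO. Scaled to all reads but those of miR-21, the counts were 0 higher and 2 lower. The cause of these changes was not tested. No depth per cell is known, so a change common to all miRNAs would not be detectable.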
